A study of Danio rerio with 6 samples.

Results

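Isolated sox10 peaks are peaks called for sox10 in the zebrafish melanoma line zcrest. They had no other sox10 peak within 5000 bases, measured from edge to edge on the same numbered chromosome. Whether each call is a true binding site was not tested. The rule found 455 of them among 4202 sox10 peaks, 4196 of which lay on the 25 numbered chromosomes. The members were chosen by their sox10 positions alone, so the spacing beyond 5000 bases, the acetylation at the sites and the position inside acetylated peaks were free to vary. The series has 6 chromatin immunoprecipitation sequencing (ChIP-seq) libraries, and peak lists of 3 were used: sox10 in zcrest, acetylation of histone H3 at lysine 27 (H3K27ac) in zcrest, and H3K27ac in a primary melanoma taken straight from the fish. The other 3 are input libraries and were not used here as separate data. Each group has 1 library.

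The labels describe zcrest as grown for more than 20 passages from a founder with the genotype p53/BRAF/Na, crestin:EGFP and MiniCoopR alone. The tumor arose in a p53/BRAF/Na fish that had been given MiniCoopR;mitf:EGFP as a control plasmid. Both sources therefore share the p53/BRAF/Na background and MiniCoopR, and differ in the EGFP construct, in the fish and in culture. The tumor was processed in bulk, so its list can hold peaks of other cells in the mass. In zcrest, 1 line stands for the cell type. Sox10 was not mapped in the tumor, so every statement on the tumor concerns its acetylation at places where the cell line had a sox10 peak.

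Sox10 is a transcription factor of the SOX family, whose members bind short DNA motifs through a high mobility group domain and bend the DNA. It specifies neural crest cells and maintains the glial and pigment lineages that arise from them, and in melanocytes it activates mitfa, the gene of the master pigment cell regulator. H3K27ac marks active promoters and enhancers, and a factor bound at an active enhancer often lies in or beside acetylated nucleosomes. A ChIP-seq peak is a stretch where reads pile up above the caller's background, and its summit is the base with the highest pile-up.

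The H3K27ac lists held 50338 peaks over 19.8 Mb in zcrest and 59760 peaks over 18 Mb in the tumor, and the sox10 list covered 0.514 Mb. The remaining 6 sox10 peaks lay on the mitochondrial sequence and were not considered. Read depth is unknown from these lists, so peaks that a deeper library would have shown cannot be counted. Fold enrichment (the ratio of a peak over the caller's background) and q were set by the authors' peak caller, and were compared only within a list. With 1 library per group, no test between conditions was possible. Intervals given with shares are exact (Clopper-Pearson) 95% intervals. Those with medians are exact 95% order-statistic intervals. Both cover counting error only. Genes near the sites and the DNA sequence under them were not analysed here, since no annotation or genome of the Zv9 build was used.

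Isolated sox10 peaks were short. Their median width was 59 bases (interval 57 to 61), against 92 bases in sox10 clusters of 2 to 19 peaks, 95 in clusters of 20 to 49 and 87 in clusters of 50 or more, where a cluster is a run of peaks no more than 5000 bases apart. The shortest width in the sox10 list was 51 bases, and 144 isolated peaks (31.6%, interval 27.4% to 36.1%) had exactly that width. In the clusters the share at 51 bases was 7.91%, 5.3% and 4.3%, from the smallest cluster class to the largest. Only 56 isolated peaks were 100 bases or wider and 8 were 200 bases or wider. All 455 together covered 36.3 kb. Sox10 widths and enrichments come from the list that defined the members and are given as a description.

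Isolated peaks were of middling fold enrichment and low significance. The median fold enrichment was 5.14 (interval 4.96 to 5.3), against 6.26, 4.94 and 4.25 in the 3 cluster classes in order of size. The median −log10 q was 4.02, against 9.07, 9.26 and 9.43. A −log10 q of 10 or more was present in 49 isolated peaks (10.8%), against 44.9%, 46.8% and 45.6%. Of the isolated peaks, 283 had a fold enrichment between 4 and 6, and 15 reached 10. Fold enrichment did not track width across the members (Spearman's rho 0.01 over 455 sites of 1 library).

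**Figure D1:**
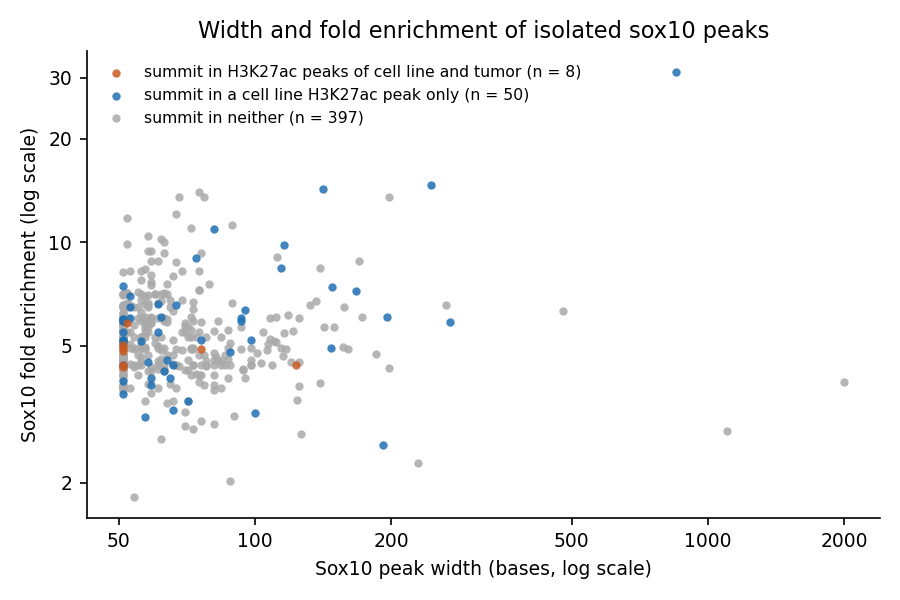
Each point is 1 of the 455 isolated sox10 peaks, by width in bases (x, log scale) and sox10 fold enrichment (y, log scale), coloured by whether its summit lay in H3K27ac peaks. The points pile up at the shortest width of 51 bases, and the peak at 31.2-fold stands alone at the top.

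Summits lay near the middle of the peaks. The median summit was at 49.3% of the peak's length, with quartiles at 32.3% and 62.6%, and the median distance from the peak's midpoint was 9 bases. Summits fell left of the midpoint in 231 peaks and right of it in 213. With the peak length cut into 5 equal parts, the parts held 53, 103, 166, 94 and 39 summits from left to right. The central part thus held 36.5% of the summits, against 34.4%, 31.7% and 35.8% in the cluster classes.

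The 10 isolated peaks with the highest fold enrichment lay on 7 chromosomes and ranged from 11.2-fold to 31.2-fold. The leading site, chr13:4322037-4322886 on Zv9, was 850 bases wide and 31.2-fold enriched, and its nearest sox10 neighbour was 2.71 Mb away. Next came chr23:1126650-1126894 with 14.7-fold and chr5:8817378-8817518 with 14.3-fold. The summits of these first 3 lay inside H3K27ac peaks of zcrest, and those of the other 7 did not. Among the 7, chr2:24890791-24890988 (13.6-fold) lay 1.27 kb from the nearest zcrest H3K27ac peak. The other 6 were 19.5 kb to 104 kb away, with chr2:47471062-47471136 (14-fold, 51.5 kb), chr2:2551887-2551954 (13.6-fold, 59.9 kb) and chr19:8815687-8815763 (13.5-fold, 104 kb) the highest in fold. The last 3 were chr7:46790950-46791016 (12.1-fold, 19.5 kb), chr5:6376818-6376869 (11.8-fold, 41.8 kb) and chr20:3735071-3735159 (11.2-fold, 104 kb). High sox10 enrichment was thus found both on and far from acetylated chromatin. The share in zcrest H3K27ac was 30% (interval 6.67% to 65.2%), against 12.7% of all 455 members. None of the 10 summits lay in a tumor H3K27ac peak (interval 0% to 30.8%), against 1.76% of all members. With 10 sites, neither share can be told from that of all members.

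The leading site by fold was also among the widest, but the widest of all had low fold enrichment. The widest, chr7:59893437-59895432, spanned 1996 bases at 3.93-fold, and chr9:16015355-16016457 spanned 1103 bases at 2.83-fold. They lay 49.4 kb and 85.8 kb from zcrest H3K27ac. The 850-base peak on chromosome 13 was the next widest. It was followed by chr16:37997266-37997744 (479 bases, 3.34 kb from zcrest H3K27ac) and chr7:47568231-47568500 (270 bases, inside a zcrest H3K27ac peak).

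Isolated peaks were present on all 25 chromosomes, with a median of 14 per chromosome and 3.36 per 10 Mb overall. They were not even. Chromosome 19 held 51 in 50.2 Mb (10.2 per 10 Mb), chromosome 2 held 40 (6.64 per 10 Mb) and chromosome 3 held 39 (6.17 per 10 Mb), while chromosomes 1 and 21 held 8 and 6 (1.33 and 1.35 per 10 Mb). Chromosomes 2, 3 and 19 together carried 130 isolated peaks (28.6%), on 12.8% of the summed chromosome span and with 7.11% of the clustered sox10 peaks. Chromosomes 12 and 24, which carried the most sox10 peaks in all (425 and 420), had 13 and 15 isolated ones. Of the 20 isolated peaks on chromosome 4, which spanned 62.1 Mb, 18 lay from 25 Mb onward. The summits of 2 of these 18 lay in zcrest H3K27ac, against 12.7% of all members. By the rule, peaks in clusters cannot be members, and how far this shapes the spread was not tested.

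**Figure D2:**
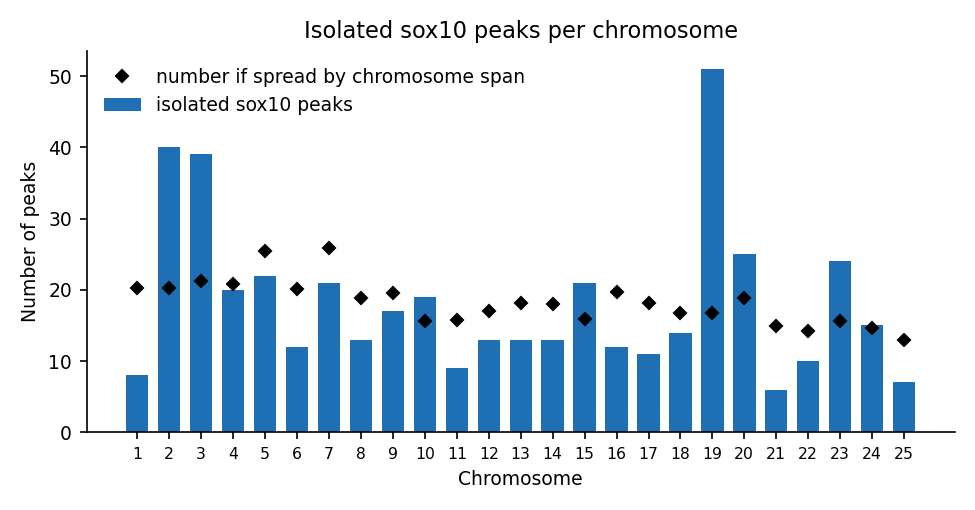
Bars give the number of isolated sox10 peaks on each chromosome, and diamonds the number each would hold if the 455 were spread by chromosome span. Chromosomes 2, 3 and 19 stand above their diamonds with 40, 39 and 51 peaks, and chromosomes 1 and 21 below with 8 and 6.

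Distances beyond the 5 kb of the rule are given next as a description, since the rule used the same gaps up to that limit. The median distance from an isolated summit to the nearest other sox10 peak was 464 kb, and 127 members (27.9%) had another sox10 peak within 100 kb. For comparison, all summits were moved along their chromosomes by 1 to 10 Mb in steps of 1 Mb to both sides, and positions over 5000 bases from any other sox10 peak were kept. In these 20 moved sets the median distance ranged from 563 kb to 926 kb, and the share within 100 kb from 7.11% to 12.3%. The nearest other sox10 peak was itself isolated for 323 members, in a cluster of 2 to 19 for 115 and in a larger cluster for 17. The windows of 1 Mb with the most isolated peaks began at 47000001 on chromosome 3 (12 peaks), 38000001 on chromosome 15 (8), 21000001 on chromosome 2 (7) and 36000001 on chromosome 15 (6). Conversely, 139 members had no other sox10 peak within 1 Mb. The most remote were chr7:23257018-23257068, at 11.3 Mb from its neighbour, chr8:55991577-55991642 (11 Mb), chr14:39443343-39443393 (7.68 Mb), chr5:30160398-30160492 (7.43 Mb) and chr5:19062143-19062246 (7.28 Mb).

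At the edge of the rule, the members with the smallest gap were the pair chr3:47634221-47634286 and chr3:47639517-47639616, 5230 bases apart, and chr23:12721694-12721922, with a gap of 5463 bases. The excluded peaks with the largest gap were chr22:4958881-4959096 and chr22:4963809-4963859, 4712 bases apart, and chr3:51202661-51202752, with a gap of 4514 bases. The chromosome 3 pair and the chromosome 22 pair, on opposite sides of the limit, all had their summits inside zcrest H3K27ac peaks. By contrast, chr23:12721694-12721922 lay 70 kb and chr3:51202661-51202752 lay 1.4 kb from the nearest one. Over all isolated peaks the share inside was 12.7%, and over clusters of 2 to 19 it was 14.1%, so these few sites do not stand for their class.

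The central question was how these lone sites sit relative to acetylated chromatin in the same cell line. Of the 455 isolated summits, 58 (12.7%, interval 9.82% to 16.2%) lay inside an H3K27ac peak of zcrest. When the summits were moved by 50 to 500 kb in steps of 50 kb to both sides, the 20 moved sets placed at least 4, in the median 7.5 and at most 13 positions inside, and 1.71% of all 9011 moved positions were inside. The share at the true sites was 7.46 times that of these moved positions and above each of the 20 sets. This ratio depends on how far the positions were moved. Moves of 5 to 25 kb put a mean of 2.6% inside (1.98% to 3.52%), and moves of 1 to 10 Mb 1.29% (0.23% to 2.49%). The share of 12.7% was above both of these ranges too. The moved sets share their members and their neighbourhoods and are not replicates, so their range is a description and not a test. Among all 4196 sox10 summits on numbered chromosomes, 5.74% lay inside a zcrest H3K27ac peak, a total that includes the isolated ones. By cluster size the share was 12.7% in isolated peaks, 14.1% (interval 12% to 16.5%) in clusters of 2 to 19, 5.3% (3.84% to 7.09%) in clusters of 20 to 49 and 0.35% (0.141% to 0.72%) in clusters of 50 or more. The intervals of isolated peaks and small clusters overlap. Neighbouring peaks in a cluster are not independent, so the intervals of the cluster classes are too narrow. The summits inside fell in 56 of 187 clusters of 2 to 19, 6 of 27 clusters of 20 to 49 and 1 of 16 clusters of 50 or more. A cluster was counted here if at least 1 of its summits lay inside, so it had more chances than an isolated peak. These cluster counts therefore cannot be ranked against the share of isolated peaks. The order of the classes given above holds for counting peaks only.

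The overlap with called zcrest H3K27ac peaks was centred on the sox10 summit, with a narrow top and a lower, wider shoulder. At 100 bases to the left and right of the summit, 10.3% and 11.9% of positions lay inside a zcrest H3K27ac peak. At 200 bases the shares were 5.49% and 6.61%, at 500 bases 3.74% and 4.19%, and at 5000 bases 1.98% and 3.3%. The moved sets ran from 0.887% to 2.88%. In steps of 100 bases, every offset from 1000 bases left to 1400 bases right of the summit was above that range. Moves of only 5 to 25 kb ran from 1.98% to 3.52%. Every offset from 1000 bases left to 600 bases right was above this range too. From 700 to 1400 bases right the offsets were mixed, such as 3.3% at 700 bases and 4.63% at 1200 bases. A continuous shoulder beyond 600 bases right thus holds only against the farther moves. Some offsets farther out were above both ranges, such as 3.96% at 2900 bases to the left. For acetylated peaks beside the summit, the numbers were inside the range of the moved sets. A zcrest H3K27ac peak began within 1 kb but did not contain the summit in 16 members (3.52%), against 14 to 32 positions in the moved sets (5.14% over all of them). At 1 to 5 kb the number was 52 (11.4%), against 43 to 70 (12.7% over all). No summit lay in a valley with zcrest H3K27ac peaks on both sides within 1 kb, against 0 to 5 moved positions.

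**Figure D3:**
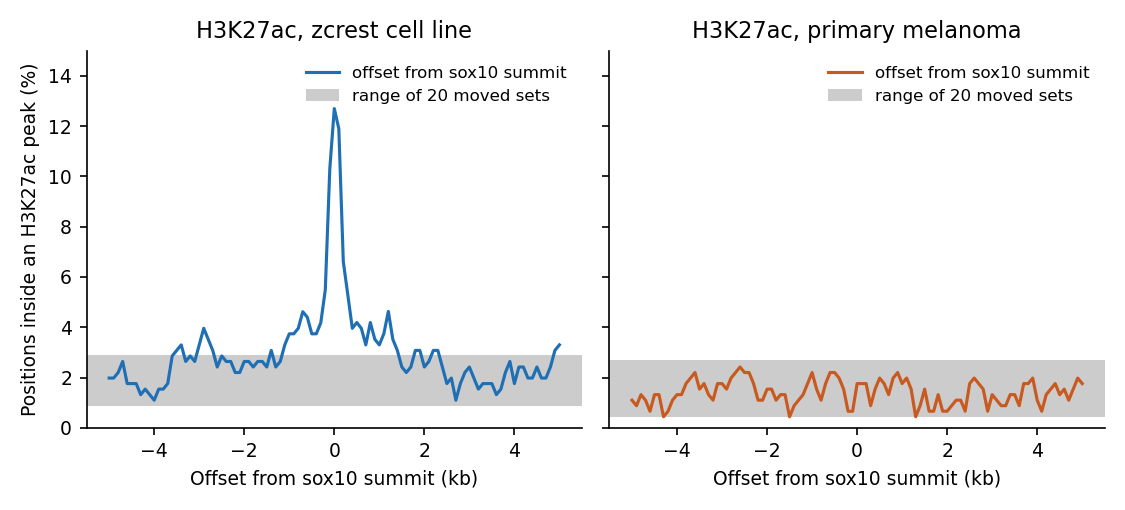
Lines give the percentage of the 455 isolated sites at which the base at a given offset from the sox10 summit (x, kb) lay inside an H3K27ac peak, for zcrest (left) and the tumor (right). Grey bands give the range over the 20 moved sets. The zcrest line peaks at 12.7% at the summit, and the tumor line is at 1.76% there, inside its band.

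Most isolated summits lay outside the called H3K27ac peaks of both sources. In zcrest, 211 summits (46.4%) lay 5 to 50 kb from the nearest H3K27ac peak, just below the 46.7% to 57.8% of the moved sets. All distance classes share the same total, so the higher share inside peaks lowers the shares of the others. Another 118 (25.9%) lay over 50 kb away, inside the moved range of 24.3% to 33.9%. The median distance was 17.4 kb (interval 14.6 to 20.7), against medians of 19.2 to 30.6 kb in the moved sets, below all 20. The median did not stand apart from moves of only 5 to 25 kb, where the sets ran from 16.5 to 21.3 kb, or among members whose −log10 q was at least 5 (16.8 kb, against 16.2 to 31.4 kb). Leaving out the positions inside a peak, the median was 23.4 kb at the true sites and 19.6 to 31.4 kb in the moved sets. In the tumor the median distance was 19.4 kb (16.2 to 22.2), inside the range of 16.2 to 20.8 kb of the moved sets. In all, 397 summits (87.3%) lay in no H3K27ac peak of either list.

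**Figure D4:**
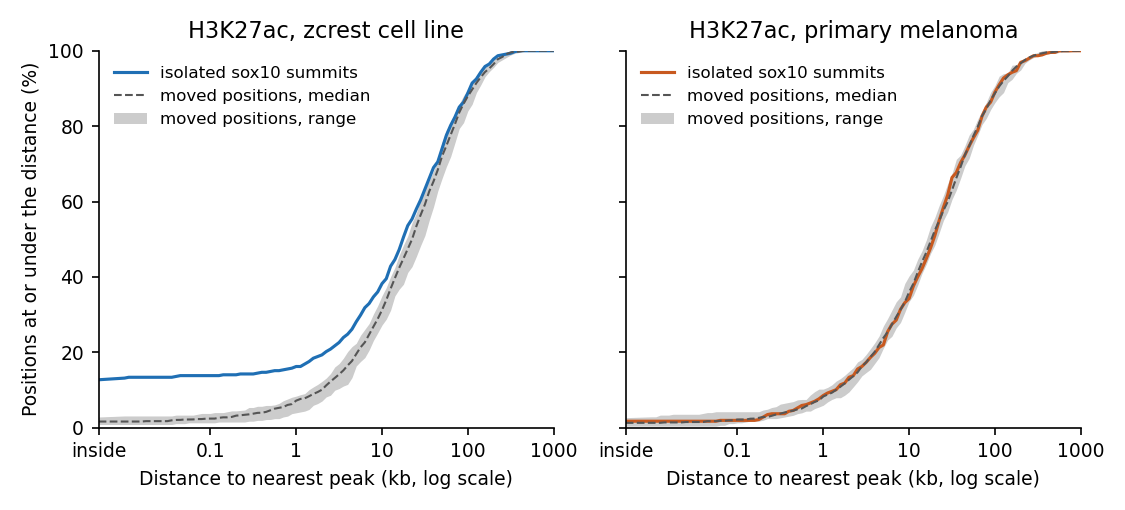
Lines give the cumulative percentage of isolated sox10 summits within a given distance of the nearest H3K27ac peak (x, kb, log scale, with positions inside a peak at the left end) for zcrest (left) and the tumor (right). Grey bands and dashed lines give the range and median of the 20 moved sets. The zcrest line starts at 12.7% and is above its band at short distances, and the tumor line runs along its band.

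In the tumor, the share of these summits inside an H3K27ac peak was inside the range of the moved sets. Of the 455 summits, 8 (1.76%, interval 0.762% to 3.43%) lay inside a tumor H3K27ac peak, against 2 to 12 positions in the moved sets and 1.32% of all moved positions. Over all sox10 summits the share was 0.334%, a total that includes the isolated ones. In clusters of 2 to 19, 20 to 49 and 50 or more it was 0.211%, 0.126% and 0.15%, from 2, 1 and 3 summits. The cluster classes were not compared with moved positions of their own. A tumor peak lay beside the summit within 1 kb in 31 members (6.81%), against 6.8% of moved positions. At 1 to 5 kb the number was 61 (13.4%), against 15.7% of moved positions. This was just below the lowest moved set, which had 62 (13.7%). All 8 summits inside a tumor peak also lay inside a zcrest H3K27ac peak, and 0 lay in a called peak of the tumor alone. The matching share for moved positions was not computed, so whether this overlap is unusual cannot be said.

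These 8 sites had middling to low sox10 enrichment among the members and lay in wide zcrest H3K27ac peaks. Their sox10 fold enrichment ran from 4.35 to 5.82 and their −log10 q from 2.07 to 4.67. Over all members the medians were 5.14 and 4.02, and the lower quartiles 4.39 and 2.75. All but the highest of the 8 folds were below the median, the next being 5.04. The zcrest H3K27ac peaks over them were 358 to 1647 bases wide, against medians of 352 over all 58 acetylated sites and 522 at moved positions. Whether moved positions inside tumor peaks meet similar zcrest peaks was not computed. By sox10 fold they were chr24:17532463-17532514, chr19:25152886-25152936, chr3:54341105-54341155, chr19:27954648-27954723, chr19:31667222-31667272, chr7:23257018-23257068, chr23:37111578-37111700 and chr10:22074994-22075044. The first lay in a zcrest H3K27ac peak of 1317 bases and 22.5-fold enrichment, 33 bases from its summit. The chromosome 10 site lay in one of 1647 bases and 19.2-fold, and the chromosome 7 site, the most remote isolated peak, in one of 1583 bases and 19.1-fold. At chr19:25152886-25152936 the sox10 summit and the zcrest H3K27ac summit were the same base.

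Sites of high and low sox10 enrichment were compared within the list. Ranked by sox10 fold enrichment, the lowest 152 members had 18 summits (11.8%) in zcrest H3K27ac and 3 in tumor H3K27ac. The next 152 had 15 (9.87%) and 5, and the highest 151 had 25 (16.6%, interval 11% to 23.5%) and 0. By significance, the share in zcrest H3K27ac was 8.82% (3 of 34) at a −log10 q under 2, 12.5% (32 of 256, 8.71% to 17.2%) at 2 to 5, 9.48% (11 of 116) at 5 to 10 and 24.5% (12 of 49, 13.3% to 38.9%) at 10 or more. It did not climb steadily, and the interval of the highest class overlaps that of the class from 2 to 5. Members with a −log10 q of 5 or more had 0 of 165 in tumor H3K27ac, which allows a share of up to 1.82% by the limit of 3 counts for a count of 0 (2.21% by the exact interval). Both limits are above the mean of 1.42% for the same members moved, so a share below the surroundings was not detectable at this number of sites. Peaks of 100 bases or wider were in zcrest H3K27ac in 13 of 56 cases (23.2%, 13% to 36.4%), and peaks of 51 bases in 17 of 144 (11.8%, 7.03% to 18.2%). These intervals overlap. On chromosomes 2, 3 and 19, where isolated peaks were densest, the share in zcrest H3K27ac was 12.3% (16 of 130), against 12.9% (42 of 325) on the other chromosomes.

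The 58 acetylated sites fell in 58 different H3K27ac peaks on 22 chromosomes, and 55 of the sox10 peaks were contained entirely in the H3K27ac peak. Their summits lay close to the H3K27ac summits. The distance between the 2 summits was 43 bases in the median (interval 27 to 73), against 140 bases (112 to 180) for the 154 moved positions that fell inside a zcrest H3K27ac peak. It was at most 50 bases for 29 of the 58 sites (50%, 36.6% to 63.4%), against 32 of 154 moved positions (20.8%, 14.7% to 28%). In H3K27ac peaks of up to 400 bases the share was 65.6% (46.8% to 81.4%), against 38.5% (25.3% to 53%), and in wider ones 30.8% (14.3% to 51.8%), against 11.8% (6.23% to 19.6%). The share was higher at the sox10 sites in each width class, with overlapping intervals in both. In relative terms, 5 equal parts of the H3K27ac peaks held 4, 19, 17, 12 and 6 of the 58 summits from left to right, so the outermost parts held few. The moved positions numbered 32, 30, 30, 26 and 36 in the same parts.

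The H3K27ac peaks under isolated sox10 summits were compared with those that moved positions met. Their median width was 352 bases (299 to 496), against 522 (470 to 656), and their median fold enrichment was 4.87 (4.27 to 6.31), against 6.17 (5.5 to 7.01). Both medians were lower at the sox10 sites, and the intervals overlap for width and for fold. Over all zcrest H3K27ac peaks the median width was 296 bases, below that under the sox10 summits, and the median fold enrichment was 5.31. A position placed without regard to peaks meets wide ones more often. Sox10 fold and H3K27ac fold showed no clear relation across the 58 sites (Spearman's rho -0.10, over sites from 1 library of each kind).

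Few of these acetylated peaks recurred in the tumor. Of the 58 zcrest H3K27ac peaks, 14 (24.1%, 13.9% to 37.2%) overlapped a tumor H3K27ac peak by at least 1 base, against 99 of the 154 met by moved positions (64.3%, 56.2% to 71.8%). Among all 50338 zcrest H3K27ac peaks the share was 47.9%. Split by width, the H3K27ac peaks of up to 400 bases were found in 1 of 32 cases (3.12%, 0.0791% to 16.2%), against 20 of 52 at moved positions (38.5%, 25.3% to 53%). Wider ones were found in 13 of 26 cases (50%, 29.9% to 70.1%), against 79 of 102 (77.5%, 68.1% to 85.1%). The share was lower at the sox10 sites in both width classes, and in the wider class the intervals overlap slightly. Culture, the different fish and any regional gain of DNA in the line cannot be told apart from the source in these lists.

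**Figure D5:**
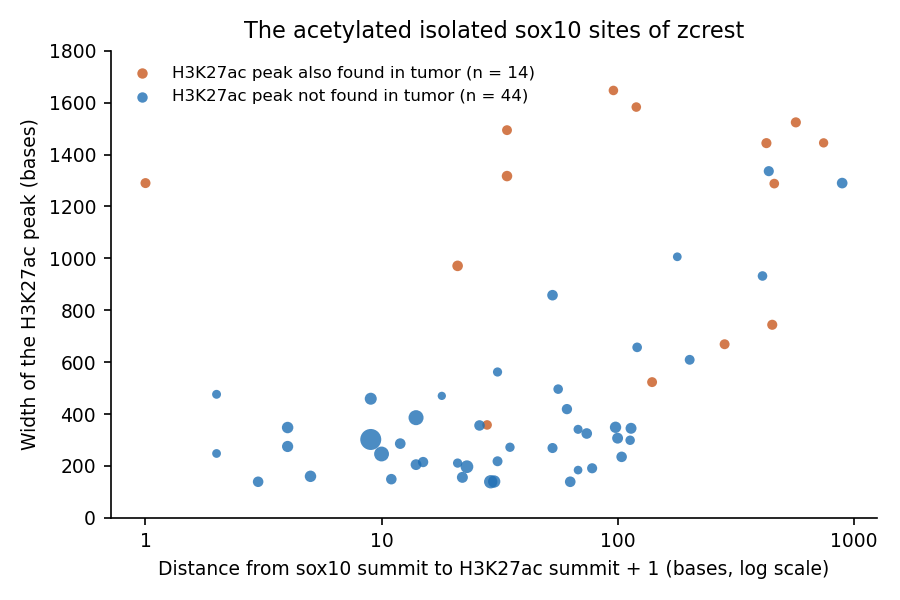
Each point is 1 of the 58 isolated sox10 sites inside a zcrest H3K27ac peak, by the distance between the 2 summits plus 1 base (x, log scale) and the width of the H3K27ac peak (y), with larger points for higher sox10 fold enrichment. The 14 sites whose H3K27ac peak was also found in the tumor lie mostly high in the plot, and the strongest sox10 sites lie low and to the left.

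Acetylated sites whose H3K27ac peak recurred in the tumor were wide and strong in H3K27ac. The median H3K27ac width was 1304 bases for the 14 that recurred, against 300 for the 44 that did not, and the median H3K27ac fold enrichment was 12.6, against 4.32. Sox10 fold enrichment over them ran from 4.04 to 5.97 with a median of 4.93, against 2.59 to 31.2 with a median of 5.89 over the 44. All 11 sites above 7-fold and all 12 with a −log10 q of 10 or more were among the 44. Only 14 of all 58 sites (24.1%) recurred, so most of any 11 or 12 sites would be among the 44 in any case. Whether these counts differ from that share was not tested. Peak width and strength also bear on whether a peak is found in a second list, and their part in this was not tested.

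The 10 acetylated sites with the highest sox10 fold, from 7.23 to 31.2, were of the kind that did not recur. At chr13:4322037-4322886 the H3K27ac peak was 302 bases wide and 3.84-fold enriched, and the summits were 8 bases apart. At chr23:1126650-1126894 it was 386 bases and 6.98-fold, 13 bases apart, and at chr5:8817378-8817518 it was 246 bases and 6.19-fold, 9 bases apart. The other 7 were chr9:2284354-2284434, chr2:59715126-59715241, chr2:4178517-4178590, chr13:50194740-50194853, chr7:5810227-5810277, chr20:15189907-15190054 and chr7:5046538-5046704. Their H3K27ac peaks were 139 to 459 bases wide, and their summits were 3 to 97 bases from the sox10 summit. None of these 10 H3K27ac peaks was found in the tumor, against 14 (24.1%) of all 58. The exact interval for 0 of 10 reaches 30.8%, so this share cannot be told from that of all 58. These 10 are also among the 11 sites above 7-fold given before, and add no separate evidence.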

How the data were processed

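The submitters' processing notes name Bowtie (an aligner), MACS2 version 2.0 (a peak caller) and the Zv9 build. Which control and thresholds were used is not given in the sources used here. Each of the 3 ChIP libraries has 1 deposited list, which gives each peak's fold enrichment (a ratio), the −log10 of its p-value and q-value, its summit and a score. The score equalled the −log10 q times 10, truncated, in every deposited peak. The highest q in the sox10 list was 0.0497. Positions are 1-based.

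Here, gaps between sox10 peaks were computed, and each summit's distance to H3K27ac was 0 inside a peak. Moved positions past the last peak end of a chromosome over the 3 lists, or below 1, were dropped. Moves were by fixed distances, none random. Python 3.11.15, numpy 2.4.6, pandas 2.3.3, scipy 1.17.1 and matplotlib 3.10.9 were used, and distances and shares were tested on simulated data. The members and comparisons were chosen with earlier results of these data known. Regions named are the 10 highest in fold, the 10 highest in fold inside zcrest H3K27ac, all inside tumor H3K27ac, the 5 widest, 3 on each side of the isolation limit and the 5 with the largest gap. A planned search for SOX, M-box and TFAP2 motifs needs the Zv9 genome and was not run.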

Additional observations from a re-analysis of the deposited data

How the results depend on the processing

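Of 57 alternatives to the 5 main values and the moved levels, 48 stayed within the main value's interval and 9 did not. For a number of peaks the limit was 1.5 times, and for a moved level the range of the moved sets. Counts, shares and distances cannot change sign, so a reversal was not possible. Of the 50 alternatives with a moved range, 6 put the true value on another side of that range than the main setting did. The list of zcrest is the shorter one, so equal list lengths left it as it was. The share of isolated summits in zcrest H3K27ac was above the moved range under every alternative, from 10.5% with H3K27ac peaks at a −log10 q of 5 or more to 16.3% when summits within 1000 bases were counted (tumor 8.57%). Limiting sox10 to a −log10 q of 5 or more left 165 members, or 193 when isolation was also judged among such peaks. The tumor share was then 0%, inside and below the moved range in turn. In the second case the median distance to tumor H3K27ac was 23.4 kb, above the moved range of 14.6 to 23.3 kb. Both limits also put the zcrest distance inside the moved range (16.8 and 19.3 kb), and the first put the tumor distance above it (20.8 kb). The zcrest distance was 21.3 kb with H3K27ac at a −log10 q of 5 or more. With moves of 5 to 25 kb the moved zcrest distance averaged 18.8 kb and the true 17.4 kb lay inside the range of 16.5 to 21.3 kb, so the nearer median distance holds only against positions farther off. No paired analysis was possible because each group has 1 library, and the unknown depth limits what can be called absent.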
